A study of Mus musculus with 2 samples.

Results

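Fibroblasts made up 50 of the 3896 cell barcodes that passed quality limits in 2 single-cell libraries of CD11c-selected cells from mouse tumours. A barcode was counted as a fibroblast when Col1a1, Col1a2 and Col3a1 together held at least 0.3% of its UMIs (unique molecular identifiers, each counting 1 captured transcript molecule) and Dcn, Lum, Dpt and Mfap5 together gave at least 1 UMI. Lyz2 and Cd74 also had to stay under 0.5% of UMIs, and Epcam, Krt8 and Krt18 under 3 UMIs. Every barcode considered had at least 500 UMIs and at most 10% of them from mitochondrial genes. These genes chose the cells, so their levels are given as a description and were not tested.

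Both libraries came from the tumour microenvironment of PyMT C57BL/6N mice labelled WT, with the cell type given as myeloid cells and the title as CD11c-positive. PyMT mice carry the polyoma middle T oncogene, which gives mammary tumours; the labels used here give no promoter for it and no age or sex. Where a pair of values is given for a class, replicate 1 stands before replicate 2. The libraries form 1 group, and no label says whether each came from 1 animal or from several. They held 17369071 and 13317214 UMIs. The p-values below therefore set differences between cell classes against variation between these 2 captures. The spread of each gene was estimated with help from all other genes. A p-value thus does not measure that gene's own variation between the captures alone.

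Fibroblasts are the cells that build the collagen scaffold of connective tissue and of tumour stroma. They secrete collagens, proteoglycans and elastic fibre proteins together with the enzymes that fold, crosslink and cut them. They also release chemokines and growth factors that act on leukocytes, vessels and epithelium. CD11c, the integrin encoded by Itgax, is used to select dendritic cells and many macrophages and is not a fibroblast marker.

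Replicate 1 held 25 fibroblasts among 2469 barcodes, a share of 1.01% (exact 95% interval 0.656 to 1.49%). Replicate 2 also held 25, among 1427 barcodes, a share of 1.75% (1.14 to 2.58%). The mean share was 1.38% ± 0.523 (SD, n = 2), and the 2 intervals overlapped. The fibroblasts were well-filled barcodes: UMIs per cell ran between 890 and 19972 with a median of 7535 in replicate 1, and between 823 and 22660 with a median of 12937 in replicate 2. The median number of genes detected was 2362 and 2651 in the 2 libraries. The intervals cover counting error only. Of the barcodes that passed quality limits, 2 occurred in both libraries, and none of these was a fibroblast.

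Among barcodes that met the other limits of the gate, the collagen limit fell between separate values. The lowest collagen share among fibroblasts was 0.449% in replicate 1 and 0.486% in replicate 2. Among barcodes below the collagen limit that met all other limits, the highest was 0.124% and 0.0169%. Barcodes that failed another limit were not part of this comparison. Of the 29 barcodes of replicate 1 past the collagen limit, 3 failed the epithelial limit and 1 lacked the proteoglycan group. Of the 27 in replicate 2, 1 failed the Lyz2 and Cd74 limit and 1 lacked the proteoglycan group. A further 2 and 11 barcodes in the 2 libraries met the collagen, proteoglycan, Lyz2 and Cd74, and epithelial limits but were over the mitochondrial limit. Another 1 and 2 met them but were below 500 UMIs.

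The labels name the sample as myeloid. All 50 cells had at least 3 UMIs over the marker genes Col1a1, Col3a1, Dcn, Lum and Dpt, which belong to the gate, so their level describes the choice and is no separate check of identity. They made together 35873 CPM (UMIs per 1000000 of the summed cells) of the fibroblast UMIs in replicate 1 and 28150 CPM in replicate 2. The same 5 genes made 311 and 119 CPM in epithelial cells and 24.8 and 16.1 CPM in macrophages. The T and NK, B, mast cell and erythroid lists were at 0 UMIs in fibroblasts of both libraries. Rgs5, Higd1b and Myh11 of pericytes and smooth muscle and Cdh5, Cldn5 and Emcn of endothelium were also at 0. So were Krt5, Krt14 and Krt17 of myoepithelium and Adipoq and Plin1 of adipocytes. The 10 epithelial markers summed to 190.0 and 181.0 CPM in fibroblasts, against 52897 and 55563 CPM in epithelial cells. The 10 macrophage and monocyte markers summed to 1459 and 1567 CPM in fibroblasts, against 56461 and 67016 CPM in macrophages. All 10 macrophage genes were detected in fibroblasts; epithelial cells had 1399 and 874 CPM of the same list. The 8 dendritic cell markers summed to 1510.1 and 956 CPM in fibroblasts, against 20697 and 27386 CPM in macrophages, with Xcr1 at 0. Markers of pericytes and smooth muscle summed to 82.2 and 61.5 CPM, those of endothelium to 92.5 and 13.7 CPM, and each of the lists for adipocytes, myoepithelium, neutrophils and mesothelium to at most 10.2 CPM.

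Of the 7 genes that chose the cells, Col3a1, the gene of type III collagen, stood at 17972 CPM in replicate 1 and 9849 CPM in replicate 2. Col1a1 and Col1a2, which encode the chains of type I collagen, stood at 5501 and 4593 CPM and at 6580 and 4218 CPM. Dcn, the gene of decorin, a small proteoglycan that binds collagen fibrils, stood at 8131 and 10013 CPM. In epithelial cells Dcn was at 302 and 107 CPM and in macrophages at 7.11 and 3.53 CPM. Lum, for the related proteoglycan lumican, was at 2034 and 1834 CPM, and Dpt, for the matrix protein dermatopontin, at 2234 and 1861 CPM. Mfap5, a microfibril protein gene, was at 1972 and 2609 CPM. On the GRCm38 assembly Col1a1 lies at chr11:94936224-94953042, Col1a2 at chr6:4504814-4541544 and Col3a1 at chr1:45311538-45349706, all on the plus strand.

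For the tests, UMIs were summed per library in fibroblasts, in 158 epithelial cells and in 2118 macrophages gated by their own genes, which gave 6 sums. One edgeR quasi-likelihood fit used all 6 sums with the library as a block. Of 8236 genes tested, 1265 were higher in fibroblasts than in epithelial cells (15.4%) and 1059 were lower (12.9%) at an adjusted p under 0.05. Against macrophages 1479 were higher (18.0%) and 1513 lower (18.4%). The median log2 fold change of all genes tested was −0.10 against epithelial cells and −0.13 against macrophages. The fit left out the genes of the gates, but genes that vary with them in cells are tied to how the cells were chosen. The filter on low sums kept genes with enough UMIs in 1 class alone. Members near 0 in the other classes thus passed through fibroblasts and could only come out higher. Counts per list are therefore a description. Of the WNT, BMP and TGF-beta modulators, 5 of 14 did not pass that filter. The gene lists are given by their counts beside those background shares, over the members that passed the filter on low sums; of the 8 fibrillar collagens written down, 3 chose the cells and 1 did not pass, and 4 of 16 other collagens, 4 of 13 contractile and 6 of 22 growth factor genes did not pass.

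**Figure D1:**
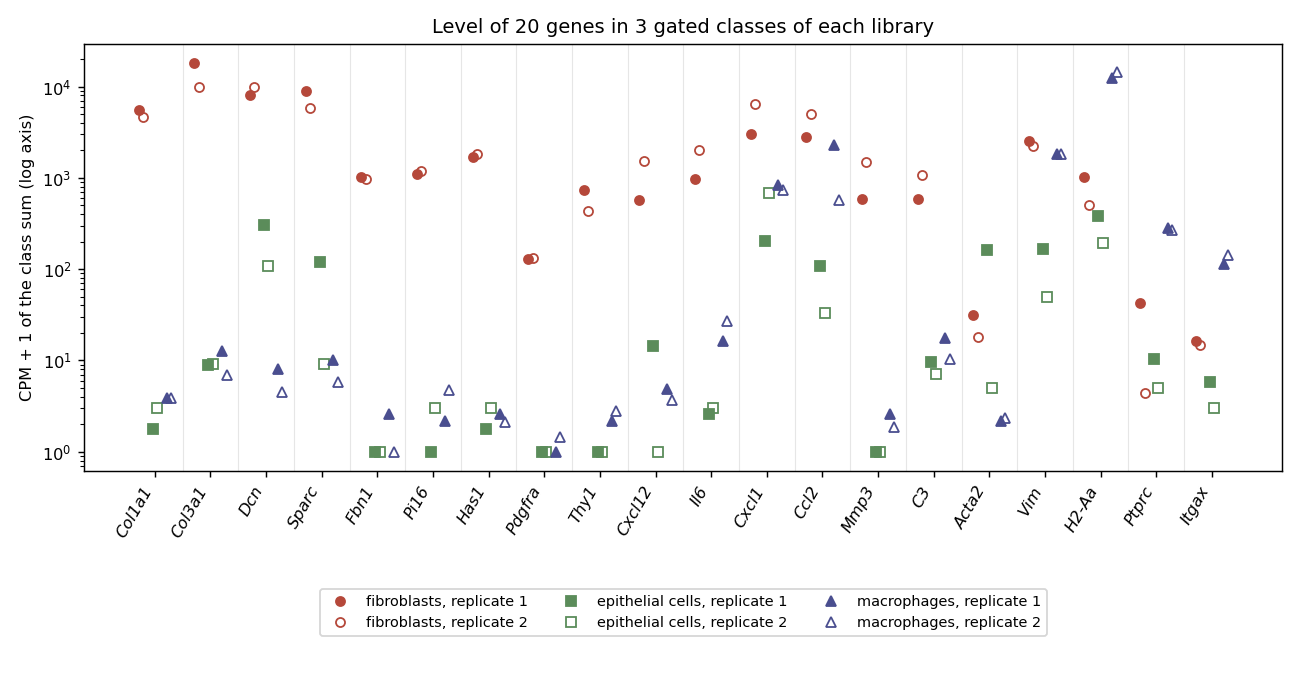
CPM plus 1 on a log axis for 20 genes in fibroblasts, epithelial cells and macrophages, with 1 point per library (filled, replicate 1; open, replicate 2). Col1a1, Col3a1 and Dcn chose the cells; Vim lies close in fibroblasts and macrophages (2517 and 2230 CPM in fibroblasts, 1844 and 1835 CPM in macrophages), and Acta2 is low in fibroblasts at 30.8 and 17.1 CPM.

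Collagens beyond the 3 of the gate were higher in fibroblasts. Of 4 other fibrillar collagens tested, 3 were higher than in epithelial cells and 1 lower; against macrophages 3 were higher and 1 was not called. Col5a2, a chain of type V collagen, which seeds fibrils, stood at 996 and 932 CPM in fibroblasts, at 0.791 and 0 CPM in epithelial cells and at 0.580 and 0.662 CPM in macrophages. The groups did not overlap, and the fold against macrophages was 10.27 on the log2 scale (SE 0.35, adjusted p = 1.76e-18). Against the single epithelial UMI the pooled ratio was 1685 (interval 301 to 66675). Col5a1 was at 622 and 406 CPM and Col5a3 at 180 and 219 CPM in fibroblasts, both called against each class. Col11a1, a cartilage-type fibrillar collagen, was the exception: 0 and 3.42 CPM in fibroblasts, against 56.2 and 36.4 CPM in epithelial cells (log2 fold change −4.14, SE 1.004, adjusted p = 0.00226).

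Of 12 other collagen genes tested, 11 were higher than in epithelial cells and all 12 higher than in macrophages, with a median log2 fold change of 4.92 and 8.28. Col6a1, a chain of the beaded-filament collagen VI, stood at 678 and 584 CPM in fibroblasts and at 0 UMIs in epithelial cells, at least 364-fold higher. Col14a1, a collagen on the surface of fibrils, stood at 883 and 714 CPM in fibroblasts, against 14.1 and 23.4 CPM in macrophages (log2 fold change 5.21, SE 0.26, adjusted p = 1.28e-15). Col8a1 was uneven: 318 and 88.8 CPM, with 75.8% of the replicate 1 UMIs in 1 of 4 positive cells.

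Genes for folding, secreting and crosslinking collagen followed: 18 of 20 tested were higher and 1 lower against epithelial cells, 16 higher and 1 lower against macrophages. Sparc, a collagen-binding secreted protein gene, stood at 8917 and 5809 CPM in fibroblasts, at 120.2 and 8.09 CPM in epithelial cells and at 8.99 and 4.85 CPM in macrophages. Both folds passed, at 7.25 (SE 0.43, adjusted p = 8.63e-14) and 9.93 (SE 0.47, adjusted p = 3.53e-16) on the log2 scale. Serpinh1, the collagen chaperone gene, was at 1818 and 1673 CPM in fibroblasts, against 67.2 and 40.5 CPM in epithelial cells and 1.596 and 1.54 CPM in macrophages. Loxl1, a crosslinking oxidase gene, was at 883.5 and 884.5 CPM in fibroblasts, with 2 UMIs in all epithelial cells (pooled ratio 777, interval 214 to 6439). Lox, its relative, was at 205.5 and 450.8 CPM in fibroblasts and at 0 in epithelial cells, at least 207-fold higher. The gene that fell against both classes was Tgm2, a transglutaminase found in many cell types, at 46.2 and 88.8 CPM in fibroblasts, against 211 and 255 CPM in epithelial cells and 129.8 and 115.6 CPM in macrophages.

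All 7 small leucine-rich proteoglycan genes tested were higher in fibroblasts than in either class. Bgn, for biglycan, stood at 2049 and 1964 CPM in fibroblasts, against 34.0 and 2.02 CPM in epithelial cells and 1.596 and 1.99 CPM in macrophages. Ogn and Aspn, for osteoglycin and asporin, were at 426 and 550 CPM and at 344 and 297 CPM in fibroblasts and had no UMI in epithelial cells, at least 293-fold and 185-fold higher.

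All 12 elastic fibre and microfibril genes tested were higher as well. Fbn1, for fibrillin, the backbone of microfibrils, stood at 1027 and 980.1 CPM in fibroblasts and had no UMI in epithelial cells, at least 586-fold higher; in macrophages it was at 1.596 and 0 CPM. Eln, for elastin, was at 1438 and 874 CPM in fibroblasts, against 11.1 and 0 CPM in epithelial cells and 0.725 and 1.10 CPM in macrophages. Mgp, matrix Gla protein, an inhibitor of calcification, was at 3005 and 4088 CPM in fibroblasts, against 41.9 and 14.2 CPM in epithelial cells. Mgp was carried by few cells: the median cell of replicate 1 had none, and 1 cell of replicate 2 had 948 Mgp UMIs per 10000.

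Adhesive and matricellular glycoprotein genes were higher in 17 of 19 against epithelial cells and in 19 of 19 against macrophages. Fn1, for fibronectin, was at 3827 and 3077 CPM in fibroblasts, against 3.16 and 46.5 CPM in epithelial cells and 139 and 211 CPM in macrophages, which also use the gene (log2 fold change against macrophages 4.14, SE 0.36, adjusted p = 2.01e-10). Postn, for periostin, stood at 2527 and 1383 CPM in fibroblasts, against 60.1 and 4.05 CPM in epithelial cells and 2.90 and 1.99 CPM in macrophages. It was detected in 16 and 22 of 25 fibroblasts, and a single cell held 36.4% of its UMIs in replicate 1.

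Among matrix proteases and their inhibitors, 18 of 20 tested were higher than in epithelial cells and 0 lower; against macrophages 19 were higher and 1 lower. Mmp2, the gelatinase gene, was at 1099 and 1001 CPM in fibroblasts, against 7.12 and 2.02 CPM in epithelial cells and 9.43 and 19.4 CPM in macrophages. Mmp3, the stromelysin gene, was at 586 and 1486 CPM in fibroblasts and at 0 UMIs in epithelial cells, at least 660.1-fold higher; it was seen in 12 and 17 cells, with 51.8% of the replicate 1 UMIs in 1 cell. Ctsk, a collagen-cutting cathepsin gene, was at 719 and 700.1 CPM in fibroblasts and at 2.03 and 2.43 CPM in macrophages. Mmp13, a collagenase gene, was the one that fell against macrophages, with 0 UMIs in fibroblasts of both libraries and 45.7 and 25.4 CPM in macrophages. Timp1, an inhibitor of these proteases, is described with the libraries below.

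Genes of adventitial fibroblasts, the Pi16-bearing cells described around vessels in many mouse tissues, were higher in 12 of 12 tested against each class. Pi16 stood at 1109 and 1199 CPM in fibroblasts, with 1 UMI in all epithelial cells and 1.16 and 3.75 CPM in macrophages (log2 fold change against macrophages 8.74, SE 0.35, adjusted p = 8.96e-18). It was detected in 18 and 22 of 25 fibroblasts, which is 72% and 88%, against 0.566% and 2.27% of macrophages at median depths of 7535 and 12937 UMIs for fibroblasts and 4118 and 6009 UMIs for macrophages. With each cell thinned to 500 UMIs the shares were 20% and 44% in fibroblasts and 0.0708% and 0.142% in macrophages. Dpp4, a second marker of these cells, was seen in 12 and 9 fibroblasts, of which 11 and 8 also had Pi16. With Pi16 in 72% and 88% of fibroblasts, a large overlap would arise without a link, and a link was not tested. Has1, a hyaluronan synthase gene, was at 1710 and 1834 CPM in fibroblasts, against 0.791 and 2.02 CPM in epithelial cells and 1.596 and 1.10 CPM in macrophages. Cd34, a sialomucin gene of many stromal progenitors, was at 473 and 287 CPM, and Ly6a, for the surface protein Sca-1, at 3267 and 2350 CPM in fibroblasts. Ly6a was also present in epithelial cells at 759 and 516 CPM, and its fold there was smaller, 2.43 on the log2 scale (SE 0.28, adjusted p = 6e-08).

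Contractile genes gave a different count. Against epithelial cells 1 of 9 tested was higher, 1 lower and 7 were not called, with a median log2 fold change of 0.30; against macrophages 8 were higher and 0 lower. Acta2, the smooth muscle actin gene used to mark myofibroblasts, had 6 and 5 UMIs in all fibroblasts, 30.8 and 17.1 CPM, in 2 and 5 cells. Epithelial cells had 161 and 4.05 CPM, so the libraries disagreed in direction (−2.15 and 1.52 on the log2 scale) and the difference did not pass (−1.36, SE 0.65, adjusted p = 0.124). Tagln, a second contractile marker, was seen in 6 and 6 fibroblasts, 1 and 4 of which also had Acta2. Tpm1, a tropomyosin gene, was lower in fibroblasts, at 128 and 181 CPM against 395 and 643 CPM in epithelial cells. Lrrc15, a gene reported in matrix-producing tumour fibroblasts, was the one that rose against epithelial cells, with 16 UMIs in each library, in 7 cells each. Fap, the fibroblast activation protein gene, had 19 and 11 UMIs in 9 and 10 cells.

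**Figure D2:**
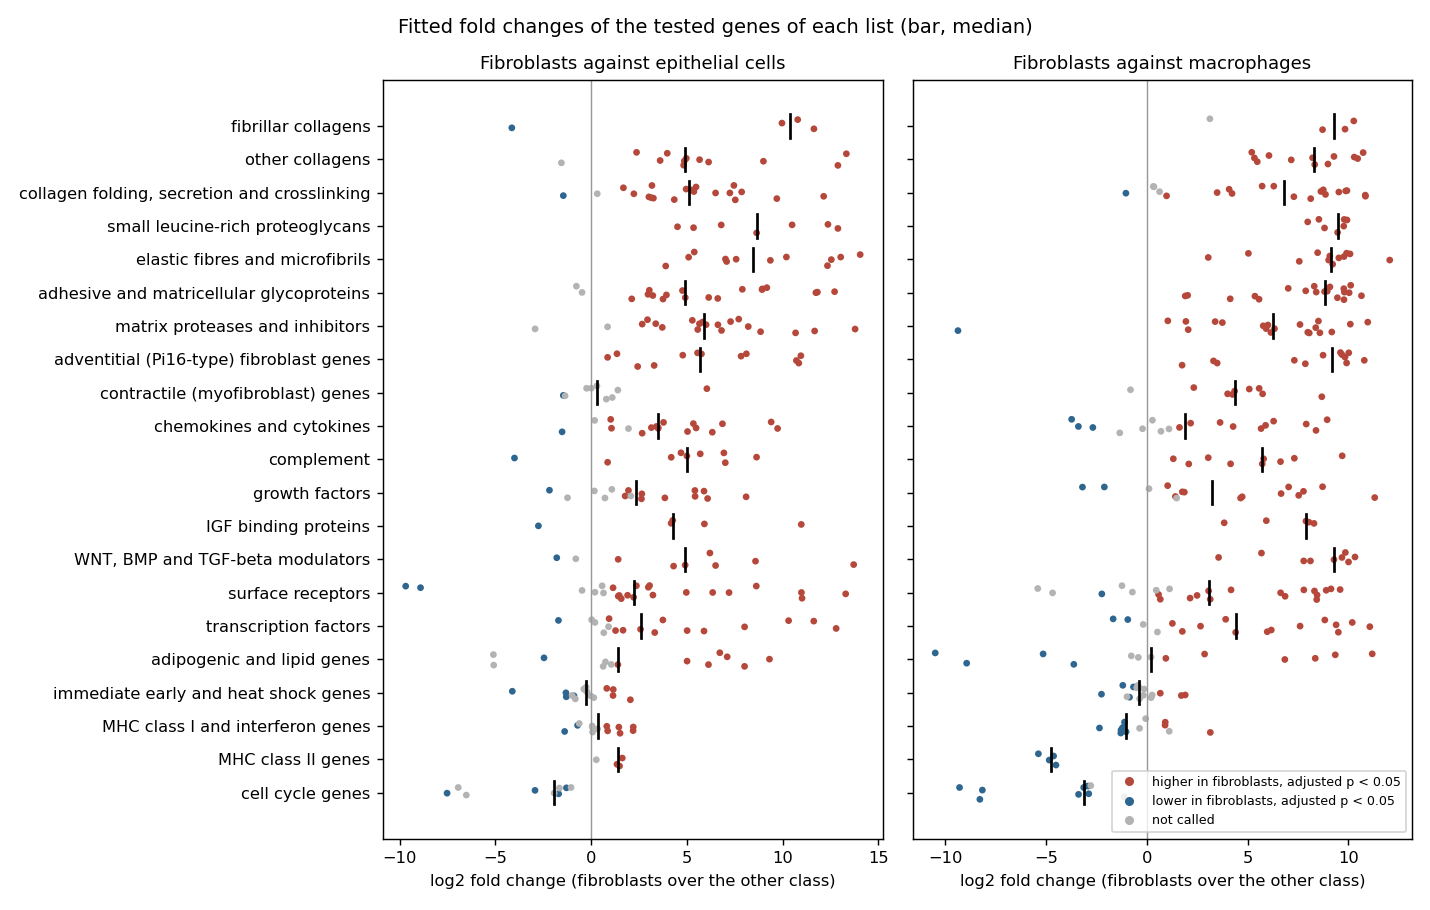
Log2 fold change of each tested gene by list, fibroblasts over epithelial cells on the left and over macrophages on the right; red, higher and blue, lower at an adjusted p under 0.05, grey, not called, bar, median. The matrix lists lie far right of 0, the contractile list sits near 0 against epithelial cells (median 0.30), and MHC class II genes fall on opposite sides in the 2 panels (medians 1.42 and −4.73).

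Chemokine and cytokine genes were higher in 15 of 18 tested against epithelial cells, with 1 lower, and in 10 of 18 against macrophages, with 3 lower. Cxcl1, a neutrophil attractant, stood at 3030 and 6376 CPM in fibroblasts, at 200.1 and 690 CPM in epithelial cells and at 825 and 737 CPM in macrophages. Every fibroblast sum was above every other sum, and both folds passed, at 3.78 (SE 0.32, adjusted p = 1.56e-10) and 2.18 (SE 0.30, adjusted p = 8.86e-07) on the log2 scale. Il6, the interleukin 6 gene, was at 971 and 2015 CPM in fibroblasts, with 3 UMIs in all epithelial cells (pooled ratio 937, interval 319 to 4552). In macrophages it was at 15.4 and 26.3 CPM (log2 fold change 5.89, SE 0.27, adjusted p = 1.2e-16). Il6 was detected in 88% of fibroblasts of each library, against 4.81% and 4.96% of macrophages, and after thinning to 500 UMIs in 36% and 60% against 0.991% and 0.709%. Cxcl12, the ligand of Cxcr4, was at 570.1 and 1533 CPM in fibroblasts, against 13.4 and 0 CPM in epithelial cells and 3.92 and 2.65 CPM in macrophages. Ccl11, the eosinophil attractant eotaxin, was at 339 and 458 CPM in fibroblasts and at 0.580 and 0.662 CPM in macrophages. Csf1, the growth factor of macrophages, was at 221 and 458 CPM in fibroblasts, against 61.7 and 60.7 CPM in epithelial cells and 3.92 and 3.09 CPM in macrophages.

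The monocyte attractants Ccl2 and Ccl7 were shared with macrophages. Ccl2 stood at 2799 and 5044 CPM in fibroblasts, against 106 and 32.4 CPM in epithelial cells, a log2 fold of 6.33 (SE 0.50, adjusted p = 3.17e-11). Macrophages had 2314 and 575 CPM, so replicate 1 gave no difference from them and replicate 2 a large one. The fitted fold against macrophages was 1.62 (SE 0.41, adjusted p = 0.00248), but within the libraries it was −0.02 and 2.96, and without the library block it did not pass (1.24, adjusted p = 0.136). Ccl7 was at 2368 and 3381 CPM in fibroblasts, against 3456 and 818 CPM in macrophages, and did not pass (0.71, SE 0.40, adjusted p = 0.178). Another 3 genes of the list were lower than in macrophages. Cxcl2, a neutrophil attractant, was at 519 and 458 CPM in fibroblasts, against 5820 and 3106 CPM in macrophages. Ccl8, a monocyte attractant, was at 216 and 195 CPM in fibroblasts, against 4193 and 1252 CPM in macrophages. Cxcl16, the ligand of Cxcr6, was at 149 and 171 CPM in fibroblasts, against 751 and 997 CPM in macrophages. Cxcl2 was at 3684 and 3138 CPM in barcodes of at most 50 UMIs, which hold free RNA, and the part of free RNA in the fibroblast level was not tested. The gene that fell against epithelial cells was Lif, a cytokine of the interleukin 6 family, at 25.7 and 64.9 CPM in fibroblasts, against 159 and 176 CPM there.

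Complement genes were higher in 8 of 9 against epithelial cells and 9 of 9 against macrophages. C3, the central component, was at 591 and 1086 CPM in fibroblasts, against 8.70 and 6.07 CPM in epithelial cells and 16.5 and 9.49 CPM in macrophages. C1s1, a protease of the C1 complex, was at 750 and 919 CPM, and C4b at 668 and 980.1 CPM in fibroblasts. Serping1, the C1 inhibitor gene, was at 1500 and 2155 CPM in fibroblasts, with 2 UMIs in all epithelial cells (pooled ratio 1665, interval 460 to 13766). Clu, for clusterin, was lower than in epithelial cells, at 25.7 and 85.4 CPM against 767 and 1487 CPM.

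Growth factor genes were higher in 10 of 16 and lower in 1 against epithelial cells, and higher in 12 and lower in 2 against macrophages. Igf1 stood at 221 and 270 CPM in fibroblasts, against 6.33 and 8.09 CPM in epithelial cells and 118 and 89.8 CPM in macrophages, with log2 folds of 5.43 (SE 0.38) and 1.04 (SE 0.24). Gas6, a ligand of Axl and Mertk, was at 390 and 318 CPM in fibroblasts, against 155 and 99.1 CPM in epithelial cells. Fgf7, a fibroblast-made factor that acts on epithelium, was at 46.2 and 99.0 CPM in fibroblasts and had 3 UMIs in epithelial cells (pooled ratio 45.7, interval 14.5 to 231). Vegfa did not pass against either class. Pdgfa, a ligand of the receptors on fibroblasts, was lower than in both, at 15.4 and 10.2 CPM against 46.7 and 99.1 CPM in epithelial cells and 105 and 85.6 CPM in macrophages.

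Of 5 IGF binding protein genes, 4 were higher and 1 lower against epithelial cells, and all 5 were higher than in macrophages. Igfbp6 was at 1120 and 1096 CPM in fibroblasts, with 1 UMI in epithelial cells (pooled ratio 1944, interval 347 to 76933). Igfbp5 was the reverse: 642 and 253 CPM in fibroblasts, against 3506 and 3012 CPM in epithelial cells (log2 fold change −2.75, SE 0.26, adjusted p = 1.93e-09). WNT, BMP and TGF-beta modulators were higher in 7 of 9 and lower in 1 against epithelial cells, and higher in 9 of 9 against macrophages. Sfrp2, a secreted WNT-binding protein gene, stood at 1423 and 557 CPM in fibroblasts, against 3.96 and 2.02 CPM in epithelial cells. Sfrp4, its relative, was at 1115 and 253 CPM in fibroblasts and at 0 in epithelial cells, at least 349.9-fold higher.

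Surface receptor genes were higher in 17 of 23 and lower in 2 against epithelial cells, and higher in 16 and lower in 1 against macrophages. Thy1, a surface glycoprotein gene of fibroblasts, was at 745 and 437 CPM in fibroblasts and at 0 UMIs in epithelial cells, at least 328-fold higher; macrophages had 1.16 and 1.77 CPM. Pdgfra and Pdgfrb, the receptors of platelet-derived growth factors, were sparse: 128 and 133 CPM and 139 and 116 CPM in fibroblasts, with 0 UMIs in epithelial cells and 2 and 1 UMIs in all macrophages. Against epithelial cells they were at least 77.0-fold and 73.3-fold higher. Pdgfra was seen in 13 and 13 cells, Pdgfrb in 11 and 15, and both together in 5 and 10. The collagen receptor genes split. Ddr2 was at 247 and 167 CPM in fibroblasts with 1 UMI in epithelial cells, while Ddr1 was at 0 UMIs in fibroblasts and at 54.6 and 62.7 CPM in epithelial cells (adjusted p = 7.54e-05). Vim, for the filament protein vimentin, was higher than in epithelial cells by 4.72 on the log2 scale (SE 0.34) and did not pass against macrophages (0.13, SE 0.28, adjusted p = 0.769).

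Transcription factor genes were higher in 12 of 17 and lower in 1 against epithelial cells, and higher in 13 and lower in 2 against macrophages. Ebf1, a factor of mesenchymal and B lineages, was at 411 and 529 CPM in fibroblasts with no UMI in epithelial cells, at least 283-fold higher. Prrx1, a factor of limb and other mesenchyme, was at 200.3 and 181.0 CPM with no UMI in epithelial cells, at least 111-fold higher. Twist1, a mesenchymal factor, had 15 UMIs in all fibroblasts. Nfib was lower than in epithelial cells, at 87.3 and 130 CPM against 363 and 499.7 CPM, and Zeb2 lower than in macrophages, at 134 and 102 CPM against 288 and 339 CPM.

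Adipogenic and lipid genes were higher in 7 of 13 and lower in 1 against epithelial cells, and higher in 6 and lower in 4 against macrophages. Apod, a lipid carrier gene, was at 616 and 693 CPM in fibroblasts, against 2.03 and 1.10 CPM in macrophages. Apoe was at 565 and 1240 CPM in fibroblasts, against 24568 and 30013 CPM in macrophages (log2 fold change −5.14, SE 0.36, adjusted p = 1.82e-12). Of 16 immediate early and heat shock genes, which respond to tissue handling as well as to growth signals, 4 were higher and 4 lower against epithelial cells and 3 higher and 4 lower against macrophages. Egr1 was higher than in both, at 1115 and 731 CPM in fibroblasts, against 349 and 206 CPM in epithelial cells and 410.1 and 94.7 CPM in macrophages. Cell cycle genes were higher in 0 of 9 in both comparisons; 4 were lower than in epithelial cells and 7 lower than in macrophages. Mki67 and Top2a had 1 UMI each in all fibroblasts and were not called against epithelial cells.

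Of 13 MHC class I and interferon genes, 6 were higher and 2 lower against epithelial cells, and 3 were higher and 7 lower against macrophages. B2m, the light chain of MHC class I, was at 5486 and 3832 CPM in fibroblasts, against 4136 and 2114 CPM in epithelial cells and 9007 and 8334 CPM in macrophages. Its rise over epithelial cells (0.86, SE 0.24, adjusted p = 0.00659) did not pass without the library block (adjusted p = 0.0796) or with DESeq2 (adjusted p = 0.0561). Ifitm3, an interferon-induced membrane protein gene, was at 3210.3 and 3135 CPM in fibroblasts, above both other classes.

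MHC class II genes, which antigen-presenting cells use, were lower than in macrophages in 4 of 4 and higher than in epithelial cells in 3 of 4. H2-Aa stood at 1022 and 505 CPM in fibroblasts, at 380 and 194 CPM in epithelial cells and at 12374 and 14644 CPM in macrophages. Few cells carried this level. Of the 610 UMIs of the MHC class II genes and Cd74 in replicate 1, 75.9% lay in 2 cells with 311 and 152 UMIs, and of the 459 in replicate 2, 325 lay in 1 cell. That cell, of 17118 UMIs, also held 27 of the 28 Ccr7 UMIs and all 72 Ccl22 UMIs of the replicate 2 fibroblasts, genes of mature dendritic cells. It held 103 Col3a1 and 144 Dcn UMIs as well. Its Lyz2 and Cd74 share was 0.368%, and the highest in replicate 1 was 0.441%, under the limit of the gate. With that share limited to 0.2%, 23 and 24 fibroblasts were left, among them the replicate 1 cell with 152 UMIs, which held 48 of the 79 H2-Aa UMIs left there. H2-Aa then stood at 449 and 149 CPM and H2-Aa, H2-Ab1 and H2-Eb1 did not pass against epithelial cells (H2-Aa 0.23, adjusted p = 0.65). Whether these barcodes hold more than 1 cell was not tested.

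Itgax, the gene of the selecting antigen, had 3 and 4 UMIs in fibroblasts, 15.4 and 13.7 CPM, in 2 cells of each library. Epithelial cells had 4.75 and 2.02 CPM and macrophages 113 and 143 CPM. The fold was −3.39 against macrophages (SE 0.42, adjusted p = 1.36e-07) and 2.02 against epithelial cells, where it did not pass (SE 0.79, adjusted p = 0.058). Of the Itgax UMIs in replicate 2, 3 lay in the cell with Ccr7, and with the 0.2% limit 1 UMI was left in each library. Ptprc, for the leukocyte antigen CD45, had 8 and 1 UMIs in fibroblasts, against 279 and 267 CPM in macrophages. CD11c protein, on which cells were selected, was not measured by these counts.

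Against macrophages, Abi3bp, Svep1 and Scara3 had no UMI in macrophages and were at least 1813-fold, 1023-fold and 820.3-fold higher in fibroblasts, and Aebp1, a collagen-binding protein gene, was at 1330.3 and 2247 CPM in fibroblasts with 2 UMIs in macrophages (pooled ratio 10746, interval 2966 to 88869). Among the falls with the greatest fitted folds, Trem2, Fyb, Fcgr4, Ms4a6b and Clec4a3, all leukocyte genes, had no UMI in fibroblasts. Against a floor of 3 UMIs over both libraries, Trem2 was at least 70.6-fold lower and Clec4a3 at least 23.9-fold lower than in macrophages. Against epithelial cells, such falls were the milk and secretory genes Ltf, Wfdc2, Chil1 and Lalba and the tight junction gene Cldn4, again at 0 UMIs in fibroblasts. Wfdc2 was at least 141-fold lower and Lalba at least 87.1-fold lower.

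Tnfaip6 and Mt2, outside the lists, were chosen after their values were seen, because they were high in nearly every fibroblast. Tnfaip6, which encodes TSG-6, an inflammation-induced protein that binds hyaluronan, stood at 2609 and 6861 CPM in fibroblasts, at 5.54 and 14.2 CPM in epithelial cells and at 6.82 and 7.72 CPM in macrophages. It was detected in 24 of 25 cells of each library. Mt2, a metallothionein gene, stood at 5624 and 9214 CPM in fibroblasts, against 1045 and 479 CPM in epithelial cells and 318 and 172 CPM in macrophages. Both passed against both classes, but genes chosen for being high in these cells give that test no separate weight.

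Most of the 25 cells in each library had Pi16 (18 and 22) and Cxcl1 (23 and 24), and 16 and 21 had both. With detection this common, the count of cells with both says nothing of a link, and the levels of Pi16 and Cxcl1 had a Spearman's rho of −0.09 and −0.42 across cells of at least 2000 UMIs. Col1a1 ran between 0 and 183 UMIs per 10000 in replicate 1, with a median of 22.5, and between 0 and 248 in replicate 2, with a median of 25.3. Ccl2 ran between 0 and 235 with a median of 12.1, and between 0 and 193 with a median of 36.2. In each library a few cells stood far above the median, and the cell with most UMIs of a gene held 34.2% of Col1a1 and 33.2% of Ccl2 in replicate 1, against 15.0% and 27.5% in replicate 2.

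**Figure D3:**
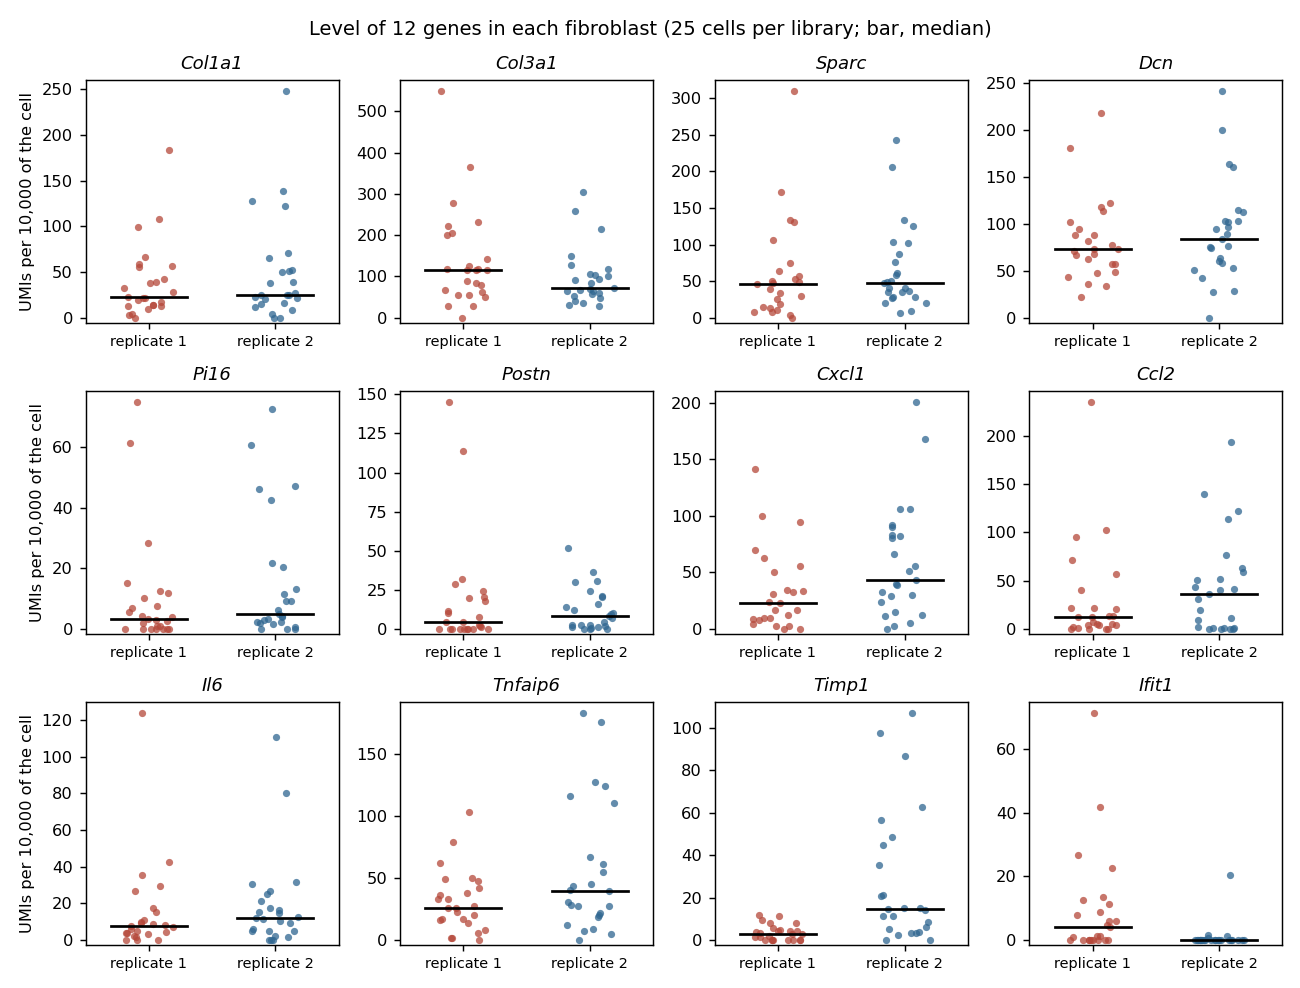
UMIs per 10000 of the cell for 12 genes in each of the 25 fibroblasts of replicate 1 and of replicate 2; bars are medians. Most genes are spread from near 0 to a few high cells in both libraries, Timp1 reaches 107 in replicate 2 and 11.8 in replicate 1, and Ifit1 is detected in 16 cells of replicate 1 and 4 of replicate 2.

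Across cells of at least 2000 UMIs (22 in replicate 1 and 24 in replicate 2), collagen genes and Sparc varied together. Spearman's rho was 0.86 and 0.67 for Col1a1 with Sparc, 0.78 and 0.64 for Col1a1 with Col3a1, and 0.64 and 0.85 for Col1a1 with Col1a2. Mfap5, a gene of the gate, and Pi16 had 0.54 and 0.55, Dpt and Ly6a 0.47 and 0.56, and Dcn and Lum 0.47 and 0.66. Pairs within the adventitial list were lower. Pi16 with Ly6a had 0.32 and 0.30, Pi16 with Has1 0.05 and −0.19, and Ly6a with Has1 −0.01 and 0.25. Tnfaip6 with Mt2 had 0.80 and 0.56 and Tnfaip6 with Cxcl12 0.37 and 0.55. Tnfaip6 with Col1a1 had −0.56 and −0.47, with Sparc −0.55 and −0.47 and with Col3a1 −0.19 and −0.27. Mt2 had −0.38 and −0.12 with Col1a1, −0.42 and −0.11 with Sparc and −0.10 and 0.03 with Col3a1. Sparc and Cxcl12 had −0.71 and −0.38. Il6 and Has1 had 0.50 and 0.45, and Il6 and Col3a1 −0.41 and −0.35. Values within a library share depth and the total that each cell was scaled to. Depth itself related to these genes differently in the libraries: rho with UMIs per cell was −0.55 and 0.59 for Tnfaip6 and 0.66 and −0.07 for Col1a1. The pairs named are a part of those computed. Others changed sign between the libraries, such as Pi16 with Ccl2 (0.55 and −0.30) and Lum with Ccl7 (−0.51 and 0.23). The correlations are a description of these cells, with no test.

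**Figure D4:**
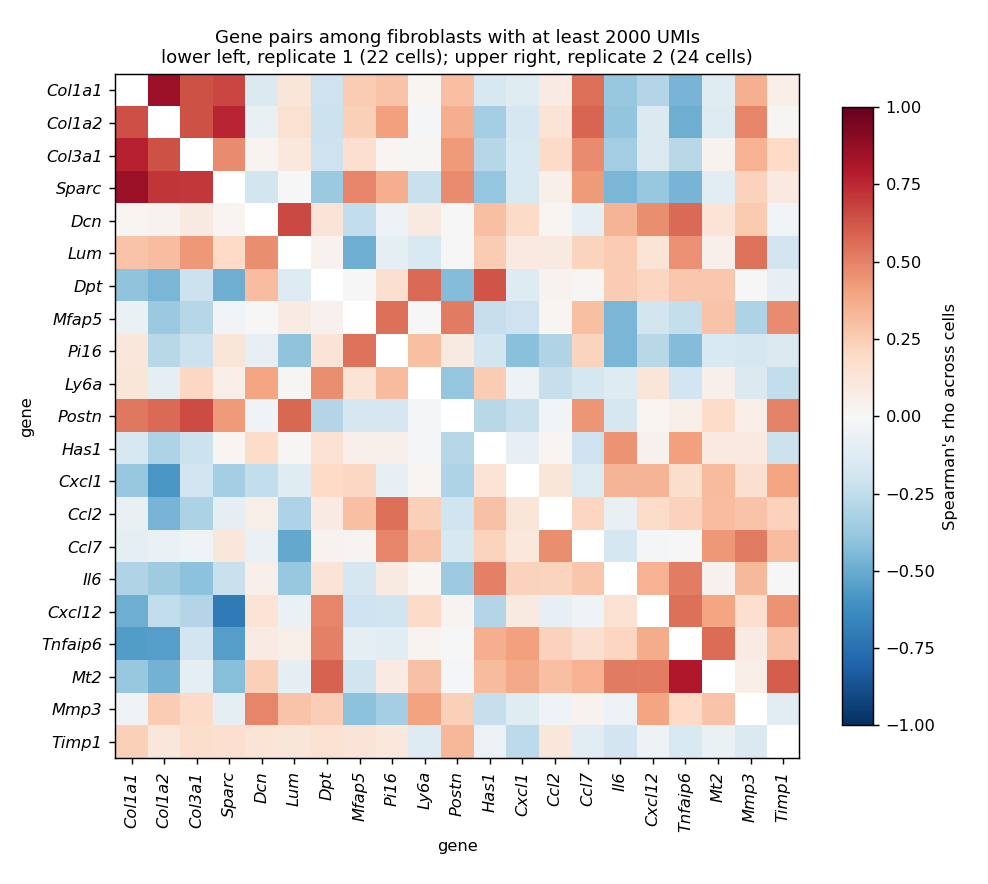
Spearman's rho between 21 genes across fibroblasts of at least 2000 UMIs, replicate 1 (22 cells) below the diagonal and replicate 2 (24 cells) above it. The red block of Col1a1, Col1a2, Col3a1 and Sparc appears on both sides, and Tnfaip6 is negative with Col1a1 in both (−0.56 and −0.47).

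Collagen genes and inflammation genes were looked at upstream of their starts, in RefSeq promoter entries of GRCm38.p6, which held 5 of 7 genes asked for (Col1a1 and Ccl2 were the others). The RefSeq starts of Col1a2, Cxcl1 and Tnfaip6 lie inside the GENCODE spans of these genes, which begin at chr6:4504814, chr5:90891241 and chr2:52038009. The whole Col1a2 window, the last part of the Tnfaip6 window and the last few bases of the Cxcl1 window thus lie inside the annotated genes. The 250 bases before the start are shown for 2 collagen genes and for 3 inflammation genes, 5′ to 3′. Capitals mark matches, on either strand, to 4 motifs, namely CCAAT, the TATA-type TATAAA, the AP-1-type TGANTCA and the NF-kB-type GGGNNTTTC. Of 32851 promoters in the table, the same window held CCAAT in 33.8%, TATAAA in 12.4%, GGGNNTTTC in 3.72% and TGANTCA in 6.75%.
Col1a2, chr6:4505368-4505617, plus strand: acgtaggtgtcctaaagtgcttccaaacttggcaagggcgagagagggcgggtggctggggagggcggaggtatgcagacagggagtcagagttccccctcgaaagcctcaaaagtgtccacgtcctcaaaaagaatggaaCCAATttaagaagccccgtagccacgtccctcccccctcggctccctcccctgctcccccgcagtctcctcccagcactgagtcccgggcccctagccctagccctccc
Col3a1, chr1:45311288-45311537, plus strand: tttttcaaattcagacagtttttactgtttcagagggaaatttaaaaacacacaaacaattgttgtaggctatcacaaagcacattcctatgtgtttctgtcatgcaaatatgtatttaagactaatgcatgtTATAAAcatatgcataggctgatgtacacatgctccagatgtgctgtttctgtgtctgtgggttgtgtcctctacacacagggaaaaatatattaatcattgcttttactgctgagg
Cxcl1, chr5:90890995-90891244, plus strand: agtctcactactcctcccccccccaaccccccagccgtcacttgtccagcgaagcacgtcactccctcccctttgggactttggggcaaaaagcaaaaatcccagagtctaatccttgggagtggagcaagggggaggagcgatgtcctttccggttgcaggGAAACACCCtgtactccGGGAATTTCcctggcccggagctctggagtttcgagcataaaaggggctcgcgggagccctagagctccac
Il6, chr5:30012864-30013113, plus strand: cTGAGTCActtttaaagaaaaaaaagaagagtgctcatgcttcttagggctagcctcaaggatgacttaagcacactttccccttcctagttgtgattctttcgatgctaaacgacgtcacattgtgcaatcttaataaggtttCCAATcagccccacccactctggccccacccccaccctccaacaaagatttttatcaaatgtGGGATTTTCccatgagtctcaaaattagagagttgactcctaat
Tnfaip6, chr2:52037863-52038112, plus strand: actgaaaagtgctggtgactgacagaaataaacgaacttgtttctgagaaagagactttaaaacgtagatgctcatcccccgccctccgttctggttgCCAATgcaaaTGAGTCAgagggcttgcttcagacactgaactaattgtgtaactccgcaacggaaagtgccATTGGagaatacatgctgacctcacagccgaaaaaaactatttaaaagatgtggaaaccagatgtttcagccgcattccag
Col1a2 held CCAAT 109 bases before its start, and Col3a1 held TATAAA 117 bases before. Cxcl1 held GGGNNTTTC at 71 bases and, on the other strand, at 88 bases. Il6 held it at 44 bases, with CCAAT at 106 and TGANTCA at 249 bases. Tnfaip6 held TGANTCA at 142 bases and CCAAT at 152 and 81 bases, and no GGGNNTTTC. No 2 motif matches overlapped. A match describes letters in this window and was not tested as a site.

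The fibroblasts of the 2 libraries were set side by side, with 1 sum for each and so no test. Of 2842 genes with at least 20 UMIs over both, 49 were at least 3-fold higher in replicate 1 with exact Poisson intervals apart (1.72%), and 32 were so in replicate 2 (1.13%). The genes named here were chosen after their values were seen. Of the 10 genes of the MHC class I and interferon list compared, Ifit1 was the 1 past this limit; of the 16 chemokines and cytokines, 2 were higher in replicate 1 and 1 in replicate 2, and of the 15 immediate early and heat shock genes, 3 were higher in replicate 1. Ifit1 stood at 709 CPM (595 to 837) in replicate 1 and 68.3 CPM (41.7 to 105) in replicate 2, and Cxcl10, an interferon-induced chemokine, at 699 and 109 CPM. Rtp4, Gbp2, Irgm1, Socs1 and Cxcl9 were also higher in replicate 1, at 226, 134, 123, 113 and 134 CPM. The replicate 1 cell with 311 UMIs of MHC class II genes and Cd74 held 69.2% of the Cxcl9, 34.6% of the Gbp2 and 32.4% of the Cxcl10 UMIs. Without that cell Cxcl9, Gbp2 and Cxcl10 were at 43.7, 92.8 and 502 CPM. With the Lyz2 and Cd74 share limited to 0.2%, Cxcl10 stood at 518 and 116 CPM and Ifit1 at 637 and 72.5 CPM. Ifit1 was seen in 16 and 4 fibroblasts. In the same libraries it was at 147 and 24.3 CPM in epithelial cells and at 36.1 and 18.5 CPM in macrophages. Sfrp4 (1115 and 253 CPM), Fos (1197 and 382 CPM) and Atf3 (534 and 143 CPM) were higher in replicate 1 too. In replicate 1, 1 fibroblast held 45.2% of the Sfrp4 UMIs and a different one held 42.5% of the Fos UMIs. Fos was also higher in replicate 1 in epithelial cells (1440 and 801 CPM) and macrophages (1385 and 804 CPM). So were Atf3 (1013 and 700, 586 and 256 CPM), Gbp2 (86.2 and 22.3, 63.7 and 26.3 CPM) and Irgm1 (71.2 and 22.3, 45.5 and 19.4 CPM). Cxcl9 was at 170 and 15.9 CPM in macrophages. Whether these differences are particular to fibroblasts was not tested.

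Timp1 was higher in replicate 2. It stood at 467 CPM (376 to 574) in replicate 1 and 3535 CPM (3322 to 3757) in replicate 2, where it was seen in 23 of 25 cells. It was at 49.8 and 20.2 CPM in epithelial cells and at 12.04 and 28.02 CPM in macrophages. Cpxm1, a gene of the carboxypeptidase family, was at 411 and 1950 CPM, Serpina3n, a protease inhibitor gene, at 190.0 and 997 CPM, and Ptx3, a secreted pattern recognition gene, at 385 and 1223 CPM. Ctgf and Cyr61, matricellular genes, were at 51.4 and 287 CPM and at 334 and 1059 CPM. In replicate 2, 1 cell held 52.4% of the Ctgf UMIs, and without that cell Ctgf was at 147 CPM. A different cell held 41.7% of the Cpxm1 UMIs, and without that one Cpxm1 was at 1213 CPM. Inhba, for an activin subunit, was at 5.14 and 174 CPM and Bdnf, a neurotrophin gene, at 5.14 and 181 CPM, each in 1 cell of replicate 1 and 9 of replicate 2. Other differences rested on single cells of replicate 2. One cell held 90.2% of the Cxcl5 UMIs. A different one, the cell with Ccr7 described above, held 85.7% of the Fabp4 UMIs and all Ccl22 UMIs. The libraries also differed in depth per fibroblast (median 7535 and 12937 UMIs), and the part of depth, animal or capture in these differences was not tested.

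**Figure D5:**
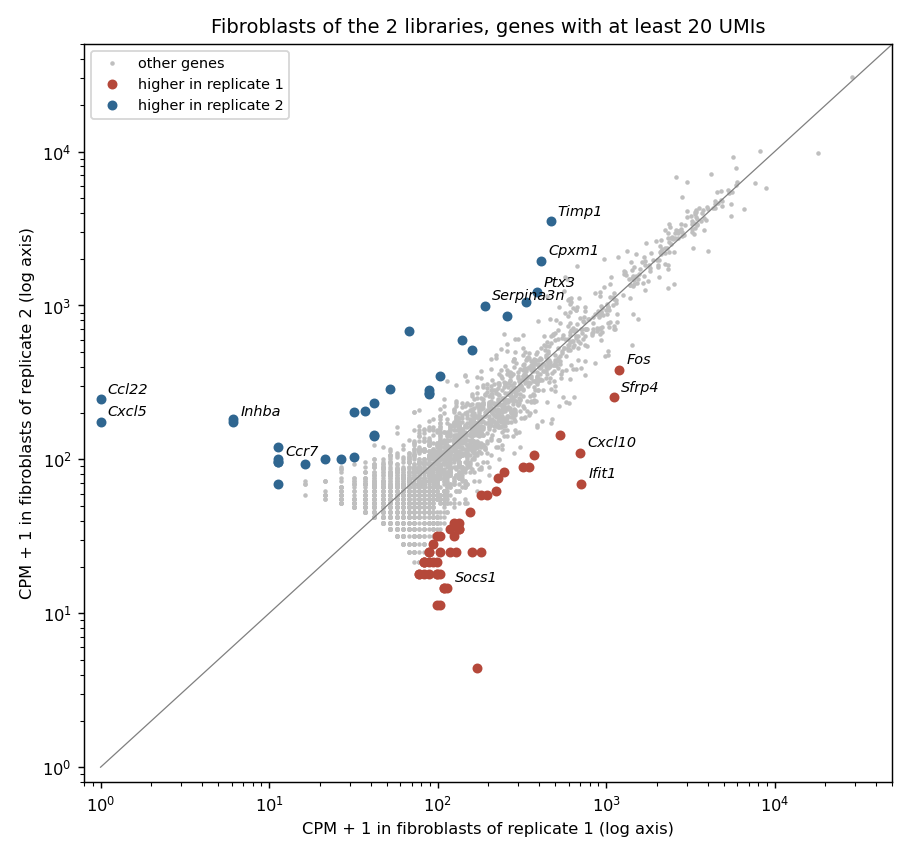
CPM plus 1 of the fibroblast sum in replicate 1 (x, log axis) and replicate 2 (y, log axis) for 2842 genes of at least 20 UMIs; coloured points are at least 3-fold apart with Poisson intervals that do not overlap. Most genes follow the diagonal, with Ifit1 and Cxcl10 below it and Timp1, Cpxm1 and Serpina3n above it.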

How the data were processed

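Per the labels' protocols, libraries were prepared with the 10x Genomics 3' kit, version 2. Per the submitters' processing notes, the authors used Cell Ranger 2.2.0 and the genome build mm10. The deposited matrices hold unnormalized UMI counts of 27998 genes in every listed barcode. How strand was used and which annotation was counted is not stated in these sources. Barcodes of at least 500 UMIs and at most 10% mitochondrial UMIs were gated. Epithelial cells had at least 3 UMIs and 0.1% of Epcam, Krt8 and Krt18, and macrophages at least 0.5% of Lyz2 and Cd74 and 0.3% of C1qa, C1qb and C1qc, each under the limits for the other classes. No doublet caller was run, and the gate limits do not exclude barcodes that hold more than 1 cell.

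Within each library, counts of a class were added up. edgeR 4.0.16 (R 4.3.3) fitted 8263 genes past filterByExpr with TMM scaling, the quasi-likelihood test and Benjamini-Hochberg adjustment; adjusted p under 0.05 is called. The 15 gate genes and 13 mitochondrial genes were not tested. Classes of 1 library come from 1 capture, so the library was a block; deviations of same-library sums correlated at 0.0574 to 0.16. CPM values are unscaled shares of a class sum, and errors given as SE are of the fitted log2 fold change. A prior count of 2 was used for folds within single libraries and for the deviations of same-library sums, not in the fit. For a gene near 0 in 1 class the size of the fold depends on such settings. Col6a1 against epithelial cells had a fitted log2 fold of 13.33, and 8.08 and 7.10 within the libraries. Folds against 0 UMIs use a floor of 3 UMIs over both libraries, and pooled ratios with 1 to 3 UMIs have exact 95% counting intervals. Floors and intervals cover counting error only. Single cells were scaled to 10000 UMIs; thinning used 500 UMIs. The fit was tested on simulated counts. DESeq2 1.42.0, other scalings, filters and gates were alternatives.

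Named genes were up to 3 per list with most fibroblast CPM, the 5 largest rises and falls of at least 100 CPM, and 8 genes in any case; further list members are given for their roles. The members, the 21 gene lists and 15 marker lists were chosen with earlier results of these data known. The result of 1 marker list is not reported here. Cebpd, Ltbp4, Ccl19, Trac and Ighm were not matched to a single entry. Gene positions came from GENCODE M21 by identifier. Python 3.11.15, numpy 2.4.6, scipy 1.17.1, pandas 2.3.3 and matplotlib 3.10.9 were used.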

Additional observations from a re-analysis of the deposited data

How the results depend on the processing

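The share of fibroblasts stayed within its interval under every gate tried (0.9 to 1.12% in replicate 1 and 1.61 to 1.98% in replicate 2). A mitochondrial limit of 20%, added after the data were seen, gave 25 and 28 fibroblasts, 0.929% and 1.77%, and changed no call among the named genes. DESeq2 called fewer genes lower in fibroblasts, 553 against epithelial cells and 874 against macrophages, where edgeR called 1059 and 1513; the cause was not tested. Without the replicate block, which pairs classes of the same capture, 1172 genes were higher and 986 lower against epithelial cells, and 1412 and 1363 against macrophages. Ccl2 against macrophages reversed without replicate 2, with a log2 fold of −0.024, and was 2.96 without replicate 1; DESeq2 gave 1.72 (adjusted p = 0.0951). Beyond the calls given above, Hmgb2 against epithelial cells was lost without the block (adjusted p = 0.0566) and with DESeq2 (0.141), and Pcna there with DESeq2 (0.0808). Without the block Fos (0.231) and Acta2 (0.106) were lost against macrophages, and Itgax was gained against epithelial cells (0.0461); the block changed no other call among the named genes. Acta2 against epithelial cells was gained without the filter (−1.52, adjusted p = 0.0152) and at a mitochondrial limit of 5% (−2.14, adjusted p = 0.0275). A fit with 1 library left has no spread between libraries, so those values carry no test. With 25 fibroblasts per library, a gene at 0 UMIs may still lie under 15.4 CPM in replicate 1 and 10.2 CPM in replicate 2.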
